A study of Mus musculus with 29 samples.

Results

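The 37 genes described here are those that mouse mitochondria carry on their own chromosome. They were taken by name, as every gene in the deposited count tables whose name begins with mt-, and they are 37 of 55292 genes in those tables. 13 encode proteins, 2 encode the ribosomal RNAs of the mitochondrial ribosome and 22 encode transfer RNAs. No expression value was used to choose them.

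Mitochondrial DNA is a small circle that encodes core subunits of respiratory complexes I, III and IV and of ATP synthase, while every subunit of complex II and all other subunits are encoded in the nucleus. Both strands are transcribed as long RNAs. Transfer RNAs lie between most of the messages and ribosomal RNAs, and their excision frees the RNAs on either side, the arrangement known as tRNA punctuation. Most messages come from the heavy-strand transcript, whereas mt-Nd6 and 8 of the transfer RNAs lie on the other strand. Heart muscle is rich in mitochondria, and mitochondrial messages are short-tailed polyadenylated RNAs, so a poly-A selected heart library holds many of them.

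RNA was sequenced from whole atria of male mice, in 29 libraries from 6 groups, after poly-A selection. The diet experiment compared NaV1.5 transgenic mice with Ctrl mice, each on a regular diet (Ctrl RD, 4 libraries, and NaV1.5 RD, 4 libraries) or on 4 weeks of high-fat diet begun at 5 weeks of age (Ctrl HFD, 4 libraries, and NaV1.5 HFD, 5 libraries). The other experiment used only NaV1.5 mice, all on that 4-week high-fat diet from the same age, given vehicle (5 libraries) or nicotinamide riboside (NR, 7 libraries), a precursor of the coenzyme NAD that complex I regenerates when it oxidises NADH. The labels give neither the promoter of the NaV1.5 transgene, nor the strain. They also do not say that libraries are different mice, so the tests below measure only how these samples vary, which may be technical. Batches are those the labels give: the diet libraries were batch 1 except Ctrl HFD replicate 4 in batch 2, the vehicle libraries were batch 3, and NR replicates 1 to 5 were batch 2 and 6 and 7 batch 3.

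Libraries held 13189995 to 33061018 counts assigned to genes. An added annotation record named flag had 0 counts in every library. Cdh6, a cadherin gene named here after its values were seen, was at 0 to 0.309 CPM (a gene's counts scaled to one common library total) in the Ctrl libraries and at 5.58 to 19.97 CPM in the NaV1.5 libraries, with no overlap. The summed level of 8 atrial cardiomyocyte markers was 59225 to 80941 CPM in 24 libraries and 31480 to 36652 CPM in the 5 NR libraries of batch 2, which therefore stand apart from the rest.

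The sequences that the results below turn on are read from GENCODE M21 transcripts on build GRCm38, in which all 44 mitochondrial genes and chromosome 1 copies compared had the same start, end and strand as in the count tables. The first set holds the transfer RNAs whose values are discussed most, written as DNA with the anticodon in capitals. The anticodon was located by its stem, with 5 paired bases in mt-Tm, mt-Tp, mt-Te and mt-Tn and 4 in mt-Tl1. mt-Tm is the transfer RNA for methionine, mt-Tl1 one of those for leucine, mt-Tp that for proline, mt-Te that for glutamate and mt-Tn that for asparagine. mt-Tp, mt-Te and mt-Tn lie on the minus strand of the mitochondrial map.
mt-Tm, chrM:3845-3913, plus strand: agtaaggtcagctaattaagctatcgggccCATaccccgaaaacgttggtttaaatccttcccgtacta
mt-Tl1, chrM:2676-2750, plus strand: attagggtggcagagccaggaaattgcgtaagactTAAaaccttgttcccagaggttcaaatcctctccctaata
mt-Tp, chrM:15356-15422, minus strand: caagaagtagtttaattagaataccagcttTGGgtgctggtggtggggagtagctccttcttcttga
mt-Te, chrM:14071-14139, minus strand: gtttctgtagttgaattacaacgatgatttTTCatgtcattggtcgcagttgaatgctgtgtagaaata
mt-Tn, chrM:5089-5159, minus strand: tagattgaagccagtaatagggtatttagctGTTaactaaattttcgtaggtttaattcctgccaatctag

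mt-Atp8, a subunit of ATP synthase, is shown because it is the member called in the NR comparison. Its gene is 204 bases long, and its last 43 bases, bases 162 to 204, in capitals, are also the start of mt-Atp6, the gene of another subunit of the same enzyme.
mt-Atp8, chrM:7766-7969, plus strand: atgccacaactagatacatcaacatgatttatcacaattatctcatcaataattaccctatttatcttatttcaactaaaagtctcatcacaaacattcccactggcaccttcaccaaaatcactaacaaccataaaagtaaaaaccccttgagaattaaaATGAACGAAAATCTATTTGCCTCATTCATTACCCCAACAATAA

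The last set shows how close some mitochondrial genes are to a nuclear copy on chromosome 1, which matters for every level given below. The first 60 bases of mt-Nd3 (a complex I subunit) differ from those of its copy Gm28438 at 1 base, in capitals, a T3C change counted from 1 at the start of mt-Nd3. A 60-base window of mt-Co1 (the catalytic subunit of complex IV) differs from its copy Gm29216 at 1 base, A1066T counted from the start of mt-Co1.
mt-Nd3, chrM:9459-9518, plus strand: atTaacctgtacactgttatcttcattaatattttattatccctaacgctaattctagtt
Gm28438, chr1:24613060-24613119, minus strand: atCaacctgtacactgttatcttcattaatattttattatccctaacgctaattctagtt
mt-Co1, chrM:6390-6449, plus strand: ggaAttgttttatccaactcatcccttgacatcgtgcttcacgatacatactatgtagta
Gm29216, chr1:24616129-24616188, minus strand: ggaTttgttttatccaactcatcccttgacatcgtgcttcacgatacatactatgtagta

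The mitochondrially encoded genes took a large share of all counts in every library. In the Ctrl RD libraries, in the order of their replicate numbers, the share was 20.14, 20.72, 18.71 and 21.89%. In the Ctrl HFD libraries it was 26.58, 24.50, 20.39 and 20.83%, the last being the batch 2 library. It was 18.82, 20.62, 20.32 and 20.14% in the NaV1.5 RD libraries and 24.28, 23.66, 22.70, 20.40 and 25.27% in the NaV1.5 HFD libraries. High-fat libraries reached higher shares in both genotypes, and in each genotype the lowest high-fat library lay within the range of the regular-diet libraries. In the vehicle libraries the share was 17.82, 17.28, 16.60, 14.68 and 14.97%. The 7 NR libraries ranged from 15.07 to 18.17%, with a median of 17.40%, and overlapped the vehicle libraries. The 95% Wilson interval of a share was at most 0.0409 percentage points wide, less than the spread between libraries; intervals cover counting error only. In whole tissue, fewer cells rich in mitochondria and less mitochondrial RNA per cell cannot be told apart.

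**Figure D1:**
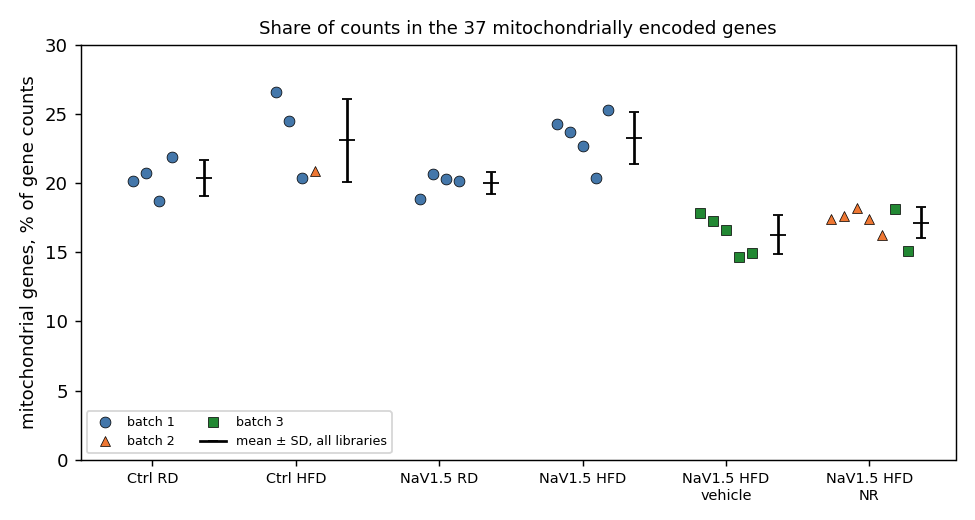
Share of all gene counts in the 37 mitochondrially encoded genes (vertical axis, percent) in each of the 29 libraries by group. Points are libraries, with shape and colour giving the labelled batch, and bars give the mean ± SD of the group. Shares ran from 14.68 to 26.58%, and all NR-experiment libraries lay below all diet-experiment libraries.

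Among the 5 comparisons made within an experiment, the differences in share were largest for the 2 diet comparisons. Over the batch 1 libraries it was 23.3 ± 1.85% in NaV1.5 HFD (SD, n = 5) and 19.97 ± 0.797% in NaV1.5 RD (SD, n = 4), a difference of 3.28 percentage points. In control mice it was 23.8 ± 3.15% on high-fat diet (SD, n = 3) and 20.4 ± 1.32% on regular diet (SD, n = 4), a difference of 3.46 points. The NaV1.5 mice differed from the Ctrl mice by -0.388 points on regular diet and -0.561 points on high-fat diet, less than the spread within groups. NR and vehicle libraries of batch 3 differed by 0.311 points, at 16.6 ± 2.14% (SD, n = 2) and 16.3 ± 1.39% (SD, n = 5). The share is a sum over the genes and was not tested. Ctrl HFD replicate 4, labelled batch 2, had 20.8%, against 16.3 to 18.2% in the 5 NR libraries of that batch. Experiment, group and processing cannot be told apart in the lower shares of the NR experiment.

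9 genes held nearly all of these counts. mt-Rnr1, mt-Rnr2, mt-Nd1, mt-Nd2, mt-Co1, mt-Nd4, mt-Nd5, mt-Nd6 and mt-Cytb, each with a mean of at least 500 CPM, made up 99.44 to 99.87% of mitochondrial counts in a library. mt-Co1 had the most, at 30.7% of mitochondrial counts on average over the 29 libraries, followed by mt-Cytb, the cytochrome b of complex III, at 21.4%. The complex I subunits mt-Nd1, mt-Nd2, mt-Nd4, mt-Nd5 and mt-Nd6 had 12.2, 10.3, 10.1, 7.65 and 4.93%. The order differed between the experiments: mt-Nd4 was above mt-Nd2 in the diet experiment, at mean levels of 26738 and 23702 CPM, and below mt-Nd5 in the NR experiment, at 11915 and 14621 CPM. The 2 ribosomal RNAs had 0.658% (mt-Rnr1, of the small ribosomal subunit) and 1.69% (mt-Rnr2, of the large subunit). The 22 transfer RNAs together had 0.113 to 0.436% in a library. Poly-A selection and gene length bear on these shares, so they do not rank the RNAs of the tissue.

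Per length, the messages differed several-fold in level in the Ctrl RD libraries. CPM per kilobase of gene lying outside the chromosome 1 copy were 51822 ± 975 for mt-Co1, 48684 ± 5448 for mt-Nd4, 39927 ± 4089 for mt-Cytb, 27987 ± 3297 for mt-Nd1 and 27023 ± 1272 for mt-Nd6 (SD, n = 4 each). mt-Nd2 followed at 18706 ± 2441 and mt-Nd5 was lowest of these at 8392 ± 95.9. The neighbours mt-Co1 and mt-Nd4, and mt-Nd1 and mt-Nd6, do not differ beyond their spread. The ribosomal RNAs were at 1101 ± 172 (mt-Rnr2) and 935 ± 90.05 (mt-Rnr1) on the same scale. For mt-Co1 and mt-Nd4 only the 1062 and 502 bases outside the copy were used as length, and read pairs across the border make these levels approximate. mt-Nd6 overlaps mt-Nd5 by 14 bases on the opposite strand, and strand was not used in counting, so reads of mt-Nd6 and of the RNA antisense to it cannot be told apart.

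The 6 transfer RNA genes with the highest means over the 29 libraries were mt-Tp at 122 CPM, mt-Te at 77.9, mt-Tm at 74.8, mt-Tl1 at 52.3, mt-Tn at 33.8 and mt-Tc (cysteine) at 22.2 CPM. This order pools experiments that differ. In the diet experiment mt-Te, at 105 CPM, was above mt-Tp, at 70.9 CPM, and mt-Tn, at 2.63 CPM, was below mt-Ti (isoleucine) and mt-Tq (glutamine), at 24.9 and 21.8 CPM. mt-Tn was at 77.9 CPM in the NR experiment. These genes are 66 to 75 bases long and mostly adjoin other genes. Read pairs over more than 1 gene were not counted, so a fragment that runs from a transfer RNA into its neighbour is missing here. mt-Tp has no annotated gene on the side of the control region, and mt-Tn has 32 free bases on one side. The other 16 transfer RNA genes had means of 0 to 18.6 CPM. mt-Tk (lysine) had 0 counts in all 29 libraries, where 3 counts, the number that a 0 allows, would be 0.0907 to 0.227 CPM. It lies between mt-Co2 and mt-Atp8, inside the bounds of the stretch copied on chromosome 1. No copy of mt-Tk itself was aligned, and its 0 is not read as a limit on its RNA.

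**Figure D2:**
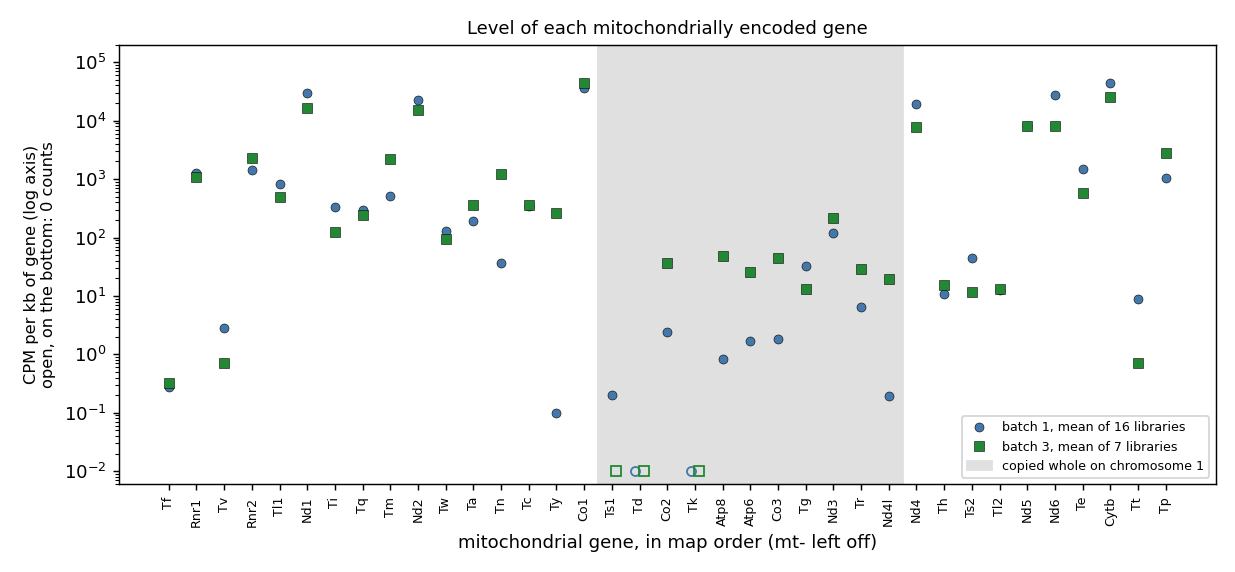
Level of each of the 37 genes as CPM per kilobase (log axis), in map order, averaged over the 16 libraries of batch 1 (circles) and the 7 of batch 3 (squares). Open symbols on the bottom line are 0 counts. The shaded genes lie wholly inside the bounds of the stretch copied on chromosome 1, and none of them averaged more than 63.4 CPM over the 29 libraries.

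Several well-known messages are nearly missing from the counts. 11 genes, 6 messages (mt-Co2 and mt-Co3 of complex IV, mt-Atp6 and mt-Atp8 of ATP synthase, mt-Nd3 and mt-Nd4l of complex I) and 5 transfer RNAs, lie wholly between bases 6390 and 11042 of the mitochondrial map. Those bases are the outer bounds of what 7 annotated genes on the minus strand of chromosome 1, between bases 24611535 and 24616197, repeat. Only these 7 were aligned, and no copy of mt-Atp8 or of the 5 transfer RNAs was aligned by itself. Those are placed in the copied stretch by their position between the bounds. Those 11 genes together held 0.0108 to 0.219% of mitochondrial counts. The copies Gm28661 of mt-Co2, Gm10925 of mt-Atp6, Gm28437 of mt-Co3 and Gm10222 of mt-Nd4l matched the mitochondrial gene at 681 of 681, 678 of 678, 783 of 783 and 294 of 294 aligned bases. Gm28438 matched mt-Nd3 except at the base shown above. Gm28439 matched the first 876 bases of mt-Nd4 without a difference, and Gm29216 the last 483 of mt-Co1 except at the base shown above. Read pairs that map to several places were left out of the counts, per the file headers, and how many came from these genes was not tested. The counts of mt-Co2, mt-Co3, mt-Atp6, mt-Atp8, mt-Nd3 and mt-Nd4l are therefore not read as levels of their RNA.

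For the pairs of mt-Co2, mt-Co3, mt-Nd4l and mt-Nd3, the copy had the higher mean in batch 1 and the mitochondrial gene in batch 3. In batch 1, mt-Co2 was at 1.66 ± 0.444 CPM and its copy Gm28661 at 569 ± 89.6 CPM (SD, n = 16). In batch 3, mt-Co2 was at 25.5 ± 3.81 CPM and Gm28661 at 16.7 ± 3.72 CPM (SD, n = 7). mt-Co3 and its copy were at 1.44 and 483 CPM in batch 1 and at 35.1 and 13.2 CPM in batch 3. mt-Nd4l, at 0.0582 CPM in batch 1, was at 5.72 CPM in batch 3, and its copy at 14.0 and 3.71 CPM. The copy of mt-Atp6 had the higher mean in both, at 429 against 1.16 CPM in batch 1 and 19.3 against 17.2 CPM in batch 3. mt-Nd3 was close to its copy in batch 1, at 41.4 and 46.1 CPM, and above it in batch 3, at 74.7 and 1.66 CPM, while mt-Co1 and mt-Nd4 were far above theirs in both. The 7 copies together took 0.166 to 0.294% of all counts in the diet experiment and 0.00720 to 0.0233% in the NR experiment. Ctrl HFD replicate 4, labelled batch 2, lay with batch 1 here, with mt-Co2 at 1.34 CPM against 28.6 to 57.5 CPM in the 5 NR libraries of the same batch. The counts thus differed between the experiments within 1 labelled batch, resting on 1 Ctrl library. Experiment, group and processing cannot be told apart, so differences in level between the experiments are described only and were not tested.

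**Figure D3:**
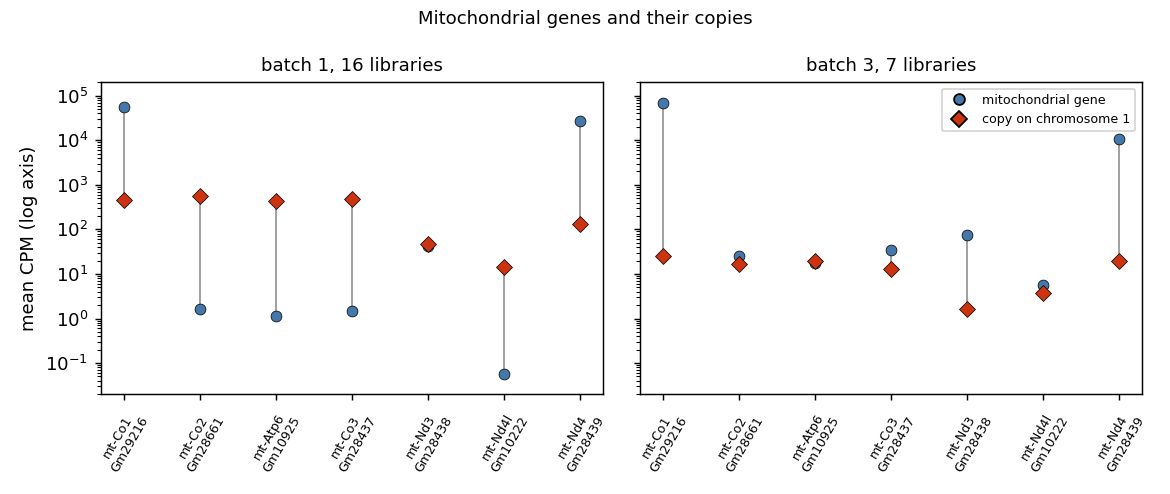
Mean CPM (log axis) of 7 mitochondrial genes (circles) and of their copies on chromosome 1 (diamonds), in batch 1 and batch 3. Grey lines join each pair. mt-Co2, mt-Atp6, mt-Co3 and mt-Nd4l were far below their copies in batch 1 and within several-fold of them in batch 3.

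Other members also differed between the experiments. mt-Nd6 was at 12280 to 16319 CPM in the diet experiment and at 3710 to 5257 CPM in the NR experiment. mt-Tn was at 1.12 to 4.89 CPM in the diet experiment and at 44.5 to 133 CPM in the NR experiment. mt-Ty, the transfer RNA for tyrosine on the same strand, named here after its values were seen, had no counts in 15 of 17 diet libraries and 7.81 to 25.6 CPM in the NR experiment. These ranges do not overlap, and Ctrl HFD replicate 4, labelled batch 2 like 5 of the NR libraries, lay with the diet experiment in all 3 genes. Every group belongs to 1 experiment, so experiment, group and processing cannot be told apart here.

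Members varied together within groups, though not evenly. Among the 9 well-counted genes, over the 16 libraries of batch 1 and after subtracting each group's mean, the 36 pairwise correlations of log2 CPM had a median of 0.539 and ran from -0.161 to 0.966. The points share library depth and composition, and the values are a description.

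The first question of the diet experiment is what 4 weeks of high-fat diet did to these RNAs in NaV1.5 atria. Most members were somewhat higher on the diet, and 1 passed the test. The median log2 difference, high-fat minus regular, of the 28 members with enough counts to be tested was 0.33, against -0.01 for all 16168 genes tested, and 25 of the 28 were above 0 (47.7% of all genes were). In edgeR's quasi-likelihood test with Benjamini-Hochberg adjustment at 0.05, 1 of 28 was called, mt-Tm, while 1.13% of all genes were called and 0.47% called higher. At an unadjusted p under 0.05, 10 members were higher and 0 lower, or 35.7% of the members tested, against 18.9% of all genes in either direction and 8.38% for higher genes. Members share each library's mitochondrial content, so they are not independent of one another.

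mt-Tm, shown above, carries methionine, which starts every mitochondrial protein. It was at 20.6, 24.2, 28.6 and 15.9 CPM in the NaV1.5 RD libraries and at 47.6, 55.3, 42.8, 30.4 and 37.2 CPM in the NaV1.5 HFD libraries. Every high-fat library was above every regular-diet library. The log2 difference was 0.95 (SE 0.19) with an adjusted p of 0.0279 in edgeR's test. The SE of a log2 difference is here its size divided by the square root of the test's F statistic. The call was lost without NaV1.5 RD replicate 1, 2 or 3 or NaV1.5 HFD replicate 2 or 3, with edgeR adjusted p running from 0.00938 to 0.0875 over the 9 libraries left out in turn, and the log2 difference from 0.85 to 1.10. In Ctrl mice mt-Tm was at 31.5, 29.9, 21.4 and 28.0 CPM on regular diet and at 56.8, 51.0, 43.5 and 36.0 CPM on high-fat diet, again without overlap. There the log2 difference was 0.93 (SE 0.20) with an edgeR adjusted p of 0.480.

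**Figure D4:**
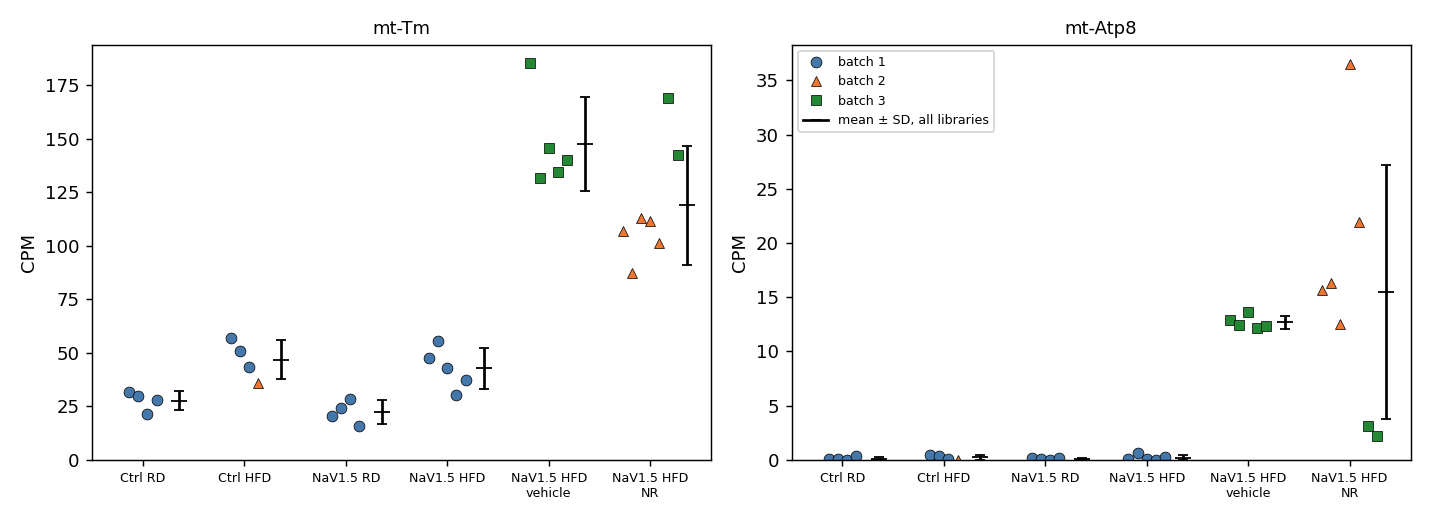
CPM of mt-Tm (left) and mt-Atp8 (right) in each of the 29 libraries by group. Points are libraries, with shape and colour giving the labelled batch, and bars give the group mean ± SD over all its libraries. mt-Tm was higher in every high-fat library than in the regular-diet libraries of the same genotype, and mt-Atp8 was at most 0.586 CPM in the diet experiment.

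The ribosomal RNAs had similar differences to each other. mt-Rnr1 was at 738, 1236, 1167 and 1227 CPM in NaV1.5 RD and at 1444, 1351, 1666, 1387 and 1628 CPM in NaV1.5 HFD, with no overlap. mt-Rnr2 was at 1385, 1948, 1929.9 and 2309.9 CPM in NaV1.5 RD and at 2551, 2541, 2768, 2212 and 2863 CPM in NaV1.5 HFD, where replicate 4 overlapped. The log2 differences were 0.46 (SE 0.14) and 0.46 (SE 0.15), with edgeR adjusted p of 0.0897 and 0.106. Neither passed in edgeR with all libraries, and both passed in DESeq2, in limma-voom and in edgeR without NaV1.5 RD replicate 4. Without 1 library in turn the differences ran from 0.31 to 0.55 for mt-Rnr1 and from 0.33 to 0.60 for mt-Rnr2.

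Among the complex I messages mt-Nd2 had the largest difference of those well counted. It was at 19535, 21045, 21620.4 and 20982 CPM in NaV1.5 RD and at 29853, 29533, 28310.0, 20480.0 and 27032 CPM in NaV1.5 HFD. Replicate 4 lay inside the regular-diet range and the other 4 above it. The log2 difference was 0.40 (SE 0.14), with an edgeR adjusted p of 0.127. The differences of mt-Nd1, mt-Nd4 and mt-Nd5 were 0.20 (SE 0.13), 0.18 (SE 0.12) and 0.12 (SE 0.12). mt-Nd6, on the other strand, had -0.08 (SE 0.12), and mt-Nd3, inside the copied stretch, 0.65 (SE 0.30). edgeR with all libraries called none of these complex I messages. mt-Nd2 was called by DESeq2 (adjusted p 0.0435), by limma-voom (adjusted p 0.0348) and by edgeR without NaV1.5 HFD replicate 4 (adjusted p 0.0391), and mt-Nd3 by limma-voom (adjusted p 0.0315).

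In complexes III and IV the differences were of the same size. mt-Cytb was at 41903, 47678, 45320.3 and 50609 CPM in NaV1.5 RD and at 55446, 55475, 53117, 51886 and 63135 CPM in NaV1.5 HFD, with no overlap. Its log2 difference was 0.28 (SE 0.12), with an edgeR adjusted p of 0.225. mt-Co1 was at 49331, 52074, 51408 and 42039 CPM in NaV1.5 RD and at 63236, 60232, 55680.3, 48832 and 60894 CPM in NaV1.5 HFD, where replicate 4 overlapped. Its log2 difference was 0.27 (SE 0.13), with an edgeR adjusted p of 0.270. Among the transfer RNAs, mt-Tl1 was at 41.0 to 48.9 CPM in NaV1.5 RD and at 49.0 to 87.2 CPM in NaV1.5 HFD, a log2 difference of 0.66 (SE 0.20) with an edgeR adjusted p of 0.0932. mt-Tp had 0.35 (SE 0.12) with an edgeR adjusted p of 0.117. Both were called by limma-voom and by edgeR without NaV1.5 HFD replicate 4, and mt-Tl1 also by DESeq2. The 15 transfer RNAs tested ran from -0.10 to 1.61, with a median of 0.45.

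The same diet comparison in Ctrl mice gave no call. In edgeR 0 of 28 members passed, as did 0% of all genes. At an unadjusted p under 0.05, 10 members were higher and 0 lower, 35.7% of the members tested, against 8.48% of all genes in either direction and 3.72% for higher genes. DESeq2 called 2 members, mt-Rnr1 and mt-Rnr2, and limma-voom 3, those and mt-Tm, where these tools called 19 and 69 of the 16168 genes. The median log2 difference of the 28 was 0.42, against -0.00480 for all genes, and 26 were above 0 (49.1% of all genes were). It was 0.20 without Ctrl HFD replicate 1, with 6 members higher at an unadjusted p under 0.05, and 0.66 without Ctrl HFD replicate 3, with 18 higher. mt-Rnr1 was at 904, 849, 811 and 1009 CPM in Ctrl RD and at 1295, 1375, 1475 and 2414 CPM in Ctrl HFD. mt-Rnr2 was at 1869, 1589.7, 1453 and 2058 CPM in Ctrl RD and at 2667, 2648, 2722 and 3848 CPM in Ctrl HFD. Neither pair of groups overlapped, and the batch 2 library, replicate 4, was the highest in both. That library is alone in its batch in this fit, so the batch term leaves it without weight in the differences. The log2 differences were 0.68 (SE 0.16) and 0.68 (SE 0.17), each with an edgeR adjusted p of 0.480. mt-Nd2 had 0.53 (SE 0.15), mt-Cytb 0.33 (SE 0.14), mt-Co1 0.25 (SE 0.15) and mt-Nd6 0.11 (SE 0.13).

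**Figure D5:**
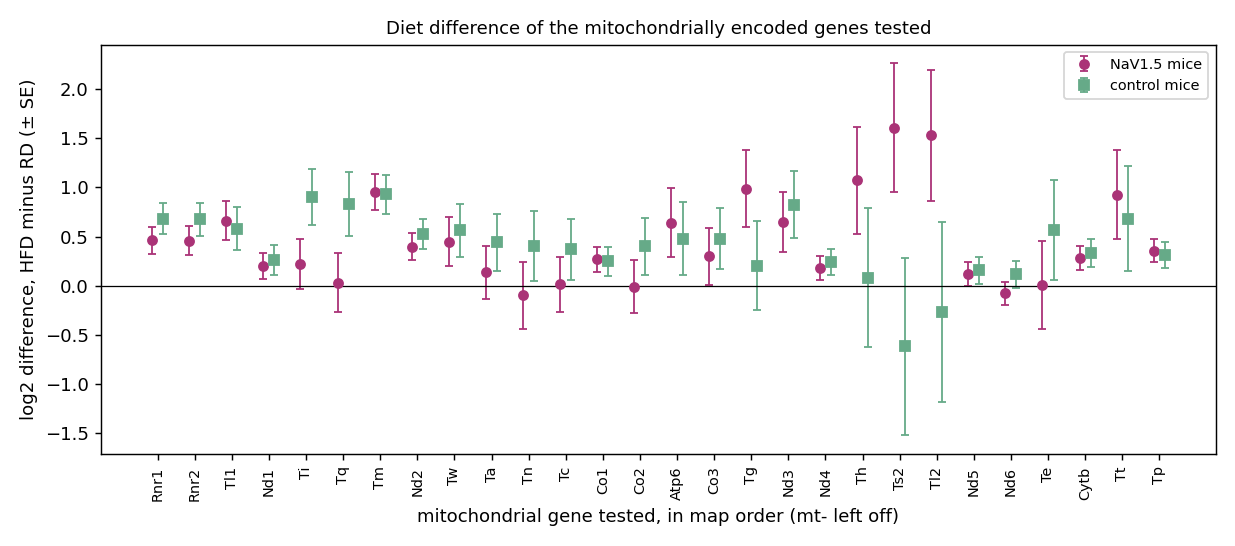
Log2 difference, high-fat minus regular diet, for the 28 members tested, in map order, in NaV1.5 mice (circles) and control mice (squares). Bars are the SE worked back from edgeR's F statistic. Most points lie above 0 in both genotypes, with medians of 0.33 and 0.42. The widest bars are those of mt-Th, mt-Ts2 and mt-Tl2, which have few counts.

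The diet values were smaller with offsets for GC content and gene length, which were applied together. The members tested had a median GC content of 35.8%, against 49.7% for all genes tested. With the offsets, the members' median log2 difference was 0.16 in NaV1.5 mice and 0.14 in control mice, and edgeR called 0 members in each, with 4 and 6 at an unadjusted p under 0.05, all higher. mt-Tm then had log2 differences of 0.85 in NaV1.5 mice, with an edgeR adjusted p of 0.109, and 0.70 in control mice. Markers of atrial muscle and of other cells were followed beside these values. The summed level of the 8 atrial cardiomyocyte markers was 71584 to 77924 CPM in NaV1.5 RD and 59357 to 64053 CPM in NaV1.5 HFD, without overlap, and none of the 8 was at 0. 1 of the 8 was called, Nppa, the atrial natriuretic peptide, which fell by 0.44 on the log2 scale (SE 0.09, edgeR adjusted p 0.0279). Of the 8, 2 were above 0 (47.7% of all genes were), with a median log2 difference of -0.22. At an unadjusted p under 0.05, 0 were higher and 3 lower (18.9% of all genes in either direction). In Ctrl mice those markers summed to 76364 to 80941 CPM on regular diet and 66991 to 70492 CPM on high-fat diet, with 0 of 8 called by edgeR. There 1 was higher and 1 lower at an unadjusted p under 0.05, and 4 of 8 were above 0, with a median log2 difference of -0.01. The summed level of 8 adipocyte markers was 15.98 to 55.3 CPM in NaV1.5 RD and 16.7 to 28.8 CPM in NaV1.5 HFD, and that of 7 haemoglobin and erythroid genes 435 to 2508 CPM and 825 to 2939 CPM. edgeR called none of the 6 tested in either list. At an unadjusted p under 0.05, 1 adipocyte marker was higher and 5 lower, with a median log2 difference of -2.53 (18.9% of all genes in either direction). 0 erythroid genes were at an unadjusted p under 0.05, with a median of 0.78. Up to 6 adipocyte markers were at 0 in a library. In Ctrl mice the adipocyte and erythroid genes tested had medians of -1.59 and -0.49, with 0 at an unadjusted p under 0.05. The 3 ventricular markers tested had medians of -0.87 in NaV1.5 mice and -0.64 in Ctrl mice. Of these, 1 was lower at an unadjusted p under 0.05 in NaV1.5 mice and 0 in Ctrl mice, and edgeR called 0. The part of these in the diet differences was not tested.

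Whether the diet difference itself differed between genotypes was tested as an interaction. edgeR called 0 of 28 members and 0% of all genes, and 0 members had an unadjusted p under 0.05 (2.26% of all genes did). DESeq2 and limma-voom also called 0. The median interaction of the members was -0.09, against -0.01 for all genes.

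The genotype comparisons gave no call in edgeR either. On regular diet, 0 of 28 members passed, against 0.0124% of all genes, and 1 had an unadjusted p under 0.05, higher (6.11% of all genes in either direction, 3.53% higher). That member was mt-Rnr1, with a log2 difference, NaV1.5 minus Ctrl, of 0.31 (SE 0.15) and an edgeR adjusted p of 0.817. DESeq2 and limma-voom called 0. The median was 0.06, and -0.13 with offsets for GC content and length, where 0 members were higher and 4 lower at an unadjusted p under 0.05. On high-fat diet, 0 of 28 passed in edgeR, against 0.0866% of all genes, and 4 members were higher and 2 lower at an unadjusted p under 0.05 (8.05% of all genes in either direction, 4.24% higher and 3.8% lower). The median was -0.08. It was -0.23 with the offsets, with 3 members higher and 6 lower at an unadjusted p under 0.05, and 0.03 without Ctrl HFD replicate 1. In this comparison 5 of 6 erythroid genes tested were higher and 3 of 8 atrial cardiomyocyte markers lower at an unadjusted p under 0.05, with medians of 1.60 and -0.22 and 0 called by edgeR. Their part in the members' values was not tested. DESeq2 called 1 member, mt-Ts2, a transfer RNA for serine, and limma-voom called 0.

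mt-Ts2 and its neighbour mt-Tl2, a transfer RNA for leucine that overlaps it by 1 base, are named because of their values, which were among the largest by genotype on high-fat diet and rest on few counts. mt-Ts2 was at 0.756, 0.575, 0.371 and 4.52 CPM in Ctrl HFD and at 1.22, 3.34, 4.34, 2.80 and 16.7 CPM in NaV1.5 HFD. The groups overlap through the batch 2 library of Ctrl HFD. That library is alone in its batch and so has no weight in the fitted difference, which was 3.24 on the log2 scale (SE 0.83) with an edgeR adjusted p of 0.238. mt-Tl2 had 2.62 (SE 0.80) with an edgeR adjusted p of 0.333, and mt-Tn had -0.89 (SE 0.34) with an edgeR adjusted p of 0.510.

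The NR comparison asks what nicotinamide riboside did to these RNAs in atria of NaV1.5 mice fed the high-fat diet. With batch in the model, it rests on NR replicates 6 and 7 against the 5 vehicle libraries of batch 3, since batch 2 held no vehicle library. The 9 well-counted genes were close in the 2 groups, with log2 differences of -0.20 to 0.22, and the lower values came from transfer RNAs and the copied stretch. Over the 31 members tested the median log2 difference, NR minus vehicle, was -0.29, against -0.01 for all 16482 genes tested. That median was -0.54 without NR replicate 6, -0.07 without NR replicate 7 and -0.01 with offsets for GC content and length, where 3 members were higher and 4 lower at an unadjusted p under 0.05. edgeR called 1 of 31 members, mt-Atp8, lower, against 0.425% of all genes called and 0.34% called lower. At an unadjusted p under 0.05, 1 member was higher and 9 lower, 32.3% of those tested, against 11.1% of all genes, 4.3% higher and 6.8% lower. DESeq2 called 3, mt-Atp8, mt-Tn and mt-Te, and limma-voom 0.

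mt-Atp8 was at 12.9, 12.4, 13.7, 12.1 and 12.3 CPM in the vehicle libraries and at 3.15 and 2.16 CPM in NR replicates 6 and 7. In the NR libraries of batch 2 it was at 15.7, 16.3, 12.5, 36.5 and 21.9 CPM, 4 of them above every vehicle library. The log2 difference within batch 3 was -2.25 (SE 0.40), with an edgeR adjusted p of 0.0415. In a fit of batch 3 alone, without the 5 NR libraries that stand apart, edgeR again called mt-Atp8 and no other member. Without the batch term it was 0.07, and between the batch 2 NR libraries and vehicle 0.45, the opposite direction. The call was lost without any 1 of the 5 vehicle libraries and without NR replicate 1, 2, 5, 6 or 7, and the edgeR adjusted p over the 12 libraries left out in turn ran from 0.000826 to 0.597. The log2 difference kept its direction and ran from -2.60 to -1.95. Leaving out NR replicate 6 or 7 leaves 1 NR library in batch 3, which is assumed to vary like the others. mt-Atp8 lies inside the bounds of the copied stretch, and it was at 0 to 0.586 CPM in the diet experiment. Its counts are not read as a level of its RNA.

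Several transfer RNAs were low in the NR comparison without being called by edgeR as fitted with all libraries. mt-Te was at 54.3, 42.3, 49.9, 41.5 and 44.2 CPM in the vehicle libraries and at 26.5 and 19.6 CPM in NR replicates 6 and 7, without overlap, and at 25.4 to 45.6 CPM in the NR libraries of batch 2. Its log2 difference was -1.01 (SE 0.25), with an edgeR adjusted p of 0.135. mt-Tn was at 133, 86.4, 91.9, 93.4 and 92.0 CPM in vehicle and at 68.0 and 44.5 CPM in NR replicates 6 and 7, with a log2 difference of -0.82 (SE 0.23) and an edgeR adjusted p of 0.198. mt-Tl2 and mt-Ts2 had -2.71 (SE 0.59) and -2.68 (SE 0.72), both from levels of at most 2.17 CPM, with edgeR adjusted p of 0.0606 and 0.135. DESeq2 called mt-Te (adjusted p 0.001) and mt-Tn (adjusted p 0.00798), and edgeR without a low-count filter called mt-Tl2 (adjusted p 0.00481) and mt-Ts2 (adjusted p 0.0257). mt-Tl2 was also called by edgeR without vehicle replicate 1. The atrial cardiomyocyte markers summed to 59225 to 67611 CPM in vehicle and to 62939 and 65852 CPM in NR replicates 6 and 7. The 8 adipocyte markers summed to 12.5 to 19.9 CPM in vehicle and to 15.4 and 40.8 CPM in those NR libraries. All 6 adipocyte markers tested were above 0, with a median log2 difference of 2.54 and 0 at an unadjusted p under 0.05. All 7 macrophage markers were above 0, 5 of them at an unadjusted p under 0.05, with a median of 0.37 and 0 called by edgeR. Over all genes tested in this comparison the median was -0.01. Of all genes, 11.1% had an unadjusted p under 0.05, and 4.3% were higher at that limit. The macrophage markers summed to 358 to 546 CPM in vehicle and to 525 and 658 CPM in NR replicates 6 and 7. The 4 ventricular markers summed to 46.0 to 79.5 CPM in vehicle and to 55.4 and 453 CPM in those NR libraries. The part of these in the NR values was not tested.

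Ratios within the mitochondrial counts, which library scaling cannot move, were tested for mt-Nd6 and the ribosomal RNA mt-Rnr2. Each was taken per 100 counts of the heavy-strand messages. mt-Nd6 is the light-strand message, but strand was not used in counting. Its counts cannot be told from those of RNA antisense to it, so its ratio is not read as a balance of the strands. In NaV1.5 RD, mt-Nd6 was at 8.11, 8.12, 8.41 and 7.59 per 100, and in NaV1.5 HFD at 6.12, 5.58, 6.05, 7.23 and 7.05 per 100. All high-fat libraries lay below all regular-diet libraries, a difference of -0.34 in mean log2 ratio. The exact permutation test, 2-sided, gave p = 0.0159, the smallest that 5 libraries against 4 allow, and 0.159 after Benjamini-Hochberg adjustment over the 10 tests. In control mice the ratio was 6.63 ± 0.108 on high-fat diet (SD, n = 3) and 7.53 ± 0.480 on regular diet (SD, n = 4), with p = 0.0571 in the exact permutation test, again the smallest possible, and 0.159 adjusted. mt-Rnr2 was at 1.21 ± 0.0745 per 100 in NaV1.5 HFD (SD, n = 5) and 1.04 ± 0.185 in NaV1.5 RD (SD, n = 4), with an exact permutation p of 0.0952 and an adjusted one of 0.159. None of the 10 tests passed after adjustment, and none could have passed with these group sizes. The smallest p possible was 0.0159 for 5 libraries against 4, 0.0286 for 4 against 4 and 0.0357 for 5 against 3. For 3 against 4 and 2 against 5 it was 0.0571 and 0.0952. Even with all 10 tests at these values, no adjusted p would be under the threshold. The adjusted values therefore cannot decide whether these ratios differ.

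The nuclear genes that build and serve the same machinery were tested in the same fits. For the subunits of complexes I to V encoded in the nucleus, edgeR called 0 of 80 genes tested in each comparison of the diet experiment and 0 of 78 in the NR comparison. In NaV1.5 mice on the diet their median log2 difference was 0.02, with 45 of 80 above 0 (47.7% of all genes were). There 3 had an unadjusted p under 0.05 (18.9% of all genes did). DESeq2 called 1 of them and limma-voom 5, where these tools called 849 and 1970 of all 16168 genes. In control mice the median was 0.15, with 71 of 80 above 0 (49.1% of all genes were). There 1 had an unadjusted p under 0.05 (8.48% of all genes did), and neither other tool called any. By genotype on regular diet the median was 0.23, against 0.01 for all genes, with 77 of 80 above 0. There 11 had an unadjusted p under 0.05, all higher (6.11% of all genes in either direction, 3.53% higher), with 0 called by any tool. The mitochondrially encoded messages had medians of 0.27, 0.33 and -0.01 in those comparisons, in that order, over the 11 tested. The 11 include mt-Co2, mt-Co3, mt-Atp6 and mt-Nd3 of the copied stretch, and the -0.01 is the value of mt-Co2. The well-counted messages ran from -0.08 to 0.40, from 0.11 to 0.53 and from -0.17 to 0.11, in the same order. The difference between the sets was not tested.

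The nuclear genes that make, process and translate mitochondrial RNA were likewise not called by edgeR in any of the 6 comparisons. These lists were 39 genes tested for transcription and RNA processing, such as Polrmt, the mitochondrial RNA polymerase, 24 for mitochondrial DNA maintenance, 77 for the mitochondrial ribosome and 22 for tRNA charging. In NaV1.5 mice on the diet their median log2 differences were 0.01, -0.02, -0.01 and -0.03. There, 6, 6, 9 and 5 genes had an unadjusted p under 0.05, DESeq2 called 1, 1, 1 and 0 and limma-voom 6, 6, 9 and 4. Over all 16168 genes, 18.9% had an unadjusted p under 0.05, and DESeq2 called 849 and limma-voom 1970. The 7 copies on chromosome 1 had a median of 0.17 in NaV1.5 mice and 0.27 in control mice on the diet, with 0 called by edgeR and 2 and 0 at an unadjusted p under 0.05. DESeq2 called 1 of the 7 in NaV1.5 mice and limma-voom 5, and neither called any in control mice.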

How the data were processed

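Atrial RNA was sequenced in 29 libraries of 6 groups. The authors' deposited counts are whole read pairs per gene, made with featureCounts 2.0.1 against GENCODE vM25 without strand, leaving out pairs that map to several places or overlap more than 1 gene, per the file headers. STAR 2.7.6a, FastQC 0.11.7 and build GRCm38 are named in the submitters' processing notes. Libraries held 13189995 to 33061018 counts.

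From these, CPM were computed on total counts. Differences were tested with edgeR 4.0.16 (quasi-likelihood, TMM factors 0.903 to 1.122, filterByExpr, batch as a term, Benjamini-Hochberg over all genes tested, threshold 0.05) in R 4.3.3, 1 fit for each experiment, checked on simulated data. DESeq2 1.42.0, limma 3.58.1 (voom), other scalings, filters, batch handling, offsets for GC content and length, a replicate block and leaving out each library were alternatives. The SE of an edgeR log2 difference was worked back from the test, as its size over the square root of F. Ratios used exact permutation tests (SciPy 1.17.1). No libraries were identical.

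The members, lists and tests were chosen with earlier results of these data known. Named with values were the 13 messages, both ribosomal RNAs, the 6 transfer RNAs with the highest mean CPM and any that passed. mt-Tl2, mt-Ts2, mt-Ty and mt-Tk were named after their values were seen. One check of the genotype labels is not reported here.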

Additional observations from a re-analysis of the deposited data

Results flagged for a closer look

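In 124 tests of a group of libraries for a single value far from the others, 11 were past the 95% limit, where chance gives about 6.2 (1 in 20). Ctrl HFD replicate 4, the batch 2 library, was high in both ribosomal RNAs, at 2414 CPM for mt-Rnr1 (others 1295 to 1475) and 3848 CPM for mt-Rnr2 (others 2648 to 2722). NaV1.5 RD replicate 1 was low in mt-Rnr1, at 738 CPM (others 1167 to 1236). Vehicle replicate 1 was high in 3 genes, at 1287 CPM for mt-Rnr1 (others 891 to 957), 185 CPM for mt-Tm (others 132 to 145) and 133 CPM for mt-Tn (others 86.4 to 93.4). Ctrl RD replicate 3 was low in mt-Nd2, at 15630.1 CPM (others 20474 to 20975), and Ctrl RD replicate 2 in mt-Nd5, at 15048 CPM (others 15368 to 15427). Ctrl HFD replicate 1 was high in mt-Co2, at 2.91 CPM (others 1.34 to 1.55). Among the NR libraries, replicate 6 was high in mt-Co1, at 78436 CPM (others 55712 to 64108), and replicate 7 low in mt-Cytb, at 28186 CPM (others 32932 to 35546). Both belong to batch 3, while the other 5 are of batch 2.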

How the results depend on the processing

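The number of members called depended on the tool. For diet in NaV1.5 mice, edgeR's 1 call became 0 without a filter, 2 with all 29 libraries in one fit, 5 in DESeq2, 7 in limma-voom, 0 with the GC and length offsets and 0 to 4 without 1 library. Over all genes the 182 calls became 849 in DESeq2, 1970 in limma-voom, 729 with all libraries in one fit, 110 on total counts, 48 with offsets and 4 to 1138 without 1 library. For diet in control mice, DESeq2 called 2 members and limma-voom 3, and for genotype on high-fat diet DESeq2 called 1. Over all genes the 2 genotype calls on regular diet became 10 without a filter, 27 in DESeq2 and 13 in limma-voom, and the 14 on high-fat diet 43, 90 and 126. For NR, members called were 2 without a filter, 6 without the batch term, 3 in DESeq2, 0 in limma-voom, 0 with offsets, 15 for NR of batch 2 against vehicle and 0 to 1 without 1 library. Over all genes the 70 NR calls became 140 without a filter, 4393 without the batch term, 18 within batch 3, 27 with all 29 libraries in one fit, 254 in DESeq2, 37 in limma-voom, 11 with offsets and 9851 for NR of batch 2 against vehicle.

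The replicate block gave mt-Tm 0.92 (edgeR adjusted p 0.0719) and called 0 members and 27 genes for diet in NaV1.5 mice. Same-numbered libraries had correlations of -0.169 to 0.199, with 4 of 18 pairs over 0.1. Libraries of other numbers had -0.230 to 0.280, with 11 of 65 pairs over 0.1. Pairing by number was therefore not seen, though these values cannot exclude it. In the NR experiment the block could not be fitted.

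Some differences changed sign. The difference in share by genotype on regular diet ran from -0.941 to 0.121 points without 1 library. On high-fat diet it ran from -2.28 to 0.820 points and was 0.186 with every library, and for NR it ran from -1.20 to 1.83 points. By genotype on high-fat diet the log2 ratios per mt-Co1 count were 0.0136 for mt-Nd6 and 0.0413 for mt-Rnr2, and the latter per heavy-strand message ran from -0.118 to 0.0926 without 1 library. The mt-Rnr2 ratio for NR was 0.25 with every library. With offsets the log2 differences were -0.0210 (mt-Nd4) and -0.0900 (mt-Nd5) for diet in NaV1.5 mice, and -0.0397 (mt-Nd5) and -0.148 (mt-Nd6) in control mice. mt-Nd6 in control mice ran from -0.000806 to 0.26 without 1 library. mt-Atp8 for NR was 0.0714 without the batch term and 0.45 for batch 2 against vehicle. The cause of these changes was not tested.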
